A study of Mus musculus with 4 samples.

Results

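The study listed 195 mitochondrial genes as upregulated in brown adipocytes that expressed NT-PGC-1α, and 93 of these symbols had a probe in its list of regulated probes. Once the respiratory chain and ATP synthase subunits, the transporters named Abc or Slc, the uncoupling proteins and a short list of enzymes of fatty acid synthesis, fatty acid oxidation and the TCA cycle were set aside by name, which removed 33 genes, 60 mitochondrial genes remained, each with 1 of the 33012 probes of the array. All 60 were chosen by measured values: the study selected them because they were higher with NT-PGC-1α on these same arrays, by more than 25%. Their direction is therefore fixed by the choice, and the folds below are a description with no test. The study also applied a p-value cutoff and a minimum signal to noise ratio, which favour close replicate arrays and stronger signals. The other 102 symbols of the mitochondrial list had no listed probe and are not described, with 1 exception given below.

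The cells were immortalized mouse brown preadipocytes, strain FVB, transduced with lentivirus carrying either an empty vector or NT-PGC-1α, the N-terminal splice form of the transcriptional coactivator PGC-1α, with a hemagglutinin tag. Both groups were differentiated in the same way. Induction lasted 2 days, with indomethacin (250 µM), dexamethasone (2 µg/ml) and isobutylmethylxanthine (0.5 mM) added to triiodothyronine (1 nM) and insulin (20 nM), and maintenance with insulin and triiodothyronine alone lasted 5 days. RNA was combined into 1 pool per group and each pool was read on a pair of ABI Mouse Genome Survey arrays, A and B, which are technical replicates. Each group was thus 1 transduced cell line and 1 RNA pool, so an effect of NT-PGC-1α cannot be told apart from any other difference between the 2 lines. A signal below is the deposited probe intensity after quantile normalization, in arbitrary units that have no meaning between probes. A fold is the ratio of the mean log2 signals of the 2 pools put back on a linear scale, and the values in brackets after it cover the 4 ways of pairing 1 array of each pool.

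Most proteins of a mitochondrion are encoded in the nucleus, made in the cytosol and carried through the translocases of the outer and inner membranes, after which chaperones fold them and proteases clear those that fail. The small mitochondrial genome encodes a few respiratory chain subunits, and these are translated inside the organelle by a dedicated ribosome with its own tRNA synthetases and assembly factors. Brown adipocytes are rich in mitochondria, and PGC-1α is known for driving the genes of this machinery together with those of respiration through factors such as NRF1, GABP (also called NRF2) and the estrogen-related receptors.

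The label describes these genes only in part. Dci and Ech1 encode auxiliary enzymes of the oxidation of unsaturated fatty acids and were kept because their symbols are not among those set aside, while Phyh and Hsd17b4 encode enzymes of peroxisomal fatty acid breakdown. Txnrd1 and Mars encode the cytosolic thioredoxin reductase and the cytosolic methionyl-tRNA synthetase, and Rab3d a GTPase of secretory vesicles. The arrays measure RNA and hold no information on where a protein resides. Older symbols are kept as the study gave them, with the current RefSeq symbol beside them.

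Over the 60 genes the median difference was 0.52 on the log2 scale, a 1.44-fold higher signal with NT-PGC-1α, and the median lay between 0.47 and 0.55 over the 4 pairings. The median of all probes was 0.01. The middle of the distribution was narrow, with quartiles of 1.34-fold and 1.55-fold. In all 60 genes the arrays of the pools did not overlap and the NT-PGC-1α pool was at least 25% higher, which holds for 26.2% of all probes, and this count follows from the choice of the genes. A difference of at least 1.5-fold without overlap was present at 18 of 60 genes, or 30%, against 16.9% of all probes. That count was 11 with no normalization or with median centring of the arrays (18.3% and 18.8% of all probes) and 36 with centring on the 75th percentile (28.0% of all probes). Because the genes had been chosen above 25%, a share above that of all probes is favoured by the choice and is no result about them. Of all probes, 8661 were at least 25% higher without overlap under quantile normalization, and 5565 at least 1.5-fold. Only 4 genes reached 2-fold (Rab3d, Cabc1, Tomm22 and Immt), 42 lay between 25% higher and 1.5-fold, and 11 of these were less than 30% higher. Immt fell below 2-fold under some of the alternative settings given at the end. The lowest of the 4 pairings was still at least 25% higher in 52 genes and at or above 1.5-fold in 14.

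**Figure D1:**
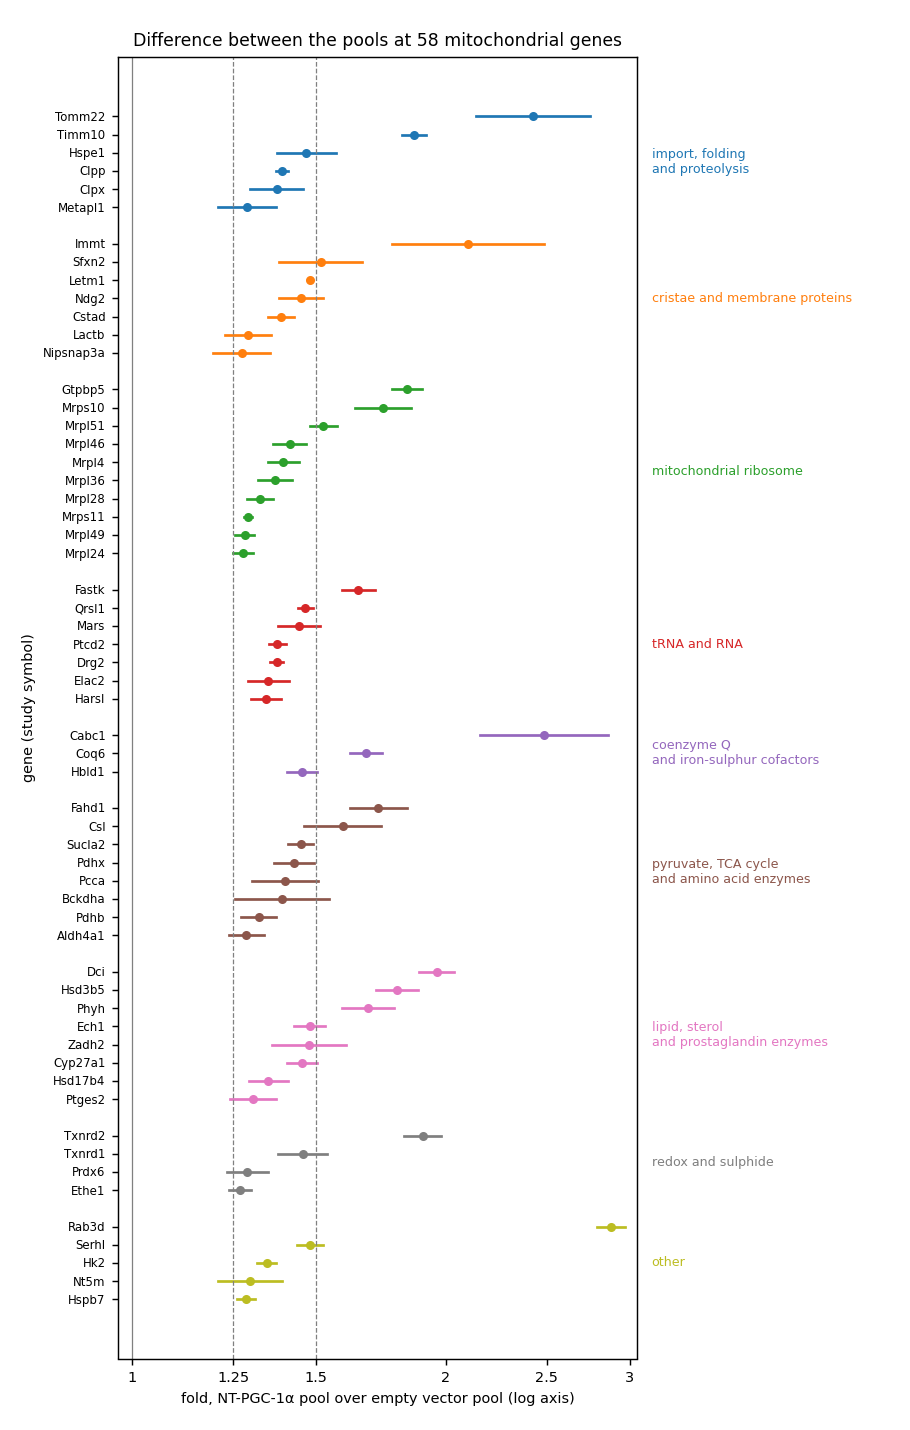
Fold between the NT-PGC-1α pool and the empty vector pool (log axis) for 58 of the 60 genes, grouped by role, with points for the mean over 2 arrays per pool and lines for the range over the 4 pairings of arrays; dashed lines mark a signal 25% higher and 1.5-fold. All points lie between 1.27-fold (Ethe1) and 2.88-fold (Rab3d), and most lie between the dashed lines.

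Most of these genes gave strong signals on the array. In 59 of 60 the mean signal was above the median of all probes, in 49 it was above the 75th percentile, and the median member stood at percentile 88.4. Arrays of the same pool differed by a median of 1.04-fold at these genes in both pools, against 1.12-fold and 1.13-fold at all probes. The listed probe of Immt, at percentile 29.5, was the only one below the median. Middling signals were those of Tomm22 at percentile 55.5, Cstad at 60.4, Txnrd1 at 63.4, Hsd3b5 at 66.4 and Rab3d at 66.6. Strong signals and close arrays are both favoured by the study's filters, so neither is a result about these genes. Across the 60 genes the log2 fold had a weak negative correlation with the mean log2 signal (Pearson r = -0.26, Spearman rho = -0.16, n = 60 genes that share the same 4 arrays).

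The promoters of the genes with a match to the GABP motif are shown first, because this motif was the most frequent of the 4 searched. It is also the shortest of the 4 and the most frequent in all promoters (8.86%). GABP is one of the factors through which PGC-1α is known to act. Whether NT-PGC-1α acts through GABP at these genes was not tested. RefSeq (GRCm38.p6) gave 58 promoter windows, each from 250 bases before to 50 bases after a transcription start, for 53 of the 60 genes. Zadh2, Mrpl4, Hsd17b4, Harsl and Prdx6 are among those without one and are named only. The stretches below, 60 bases each and upstream of the start, belong to 6 genes described in full further on, and capitals mark CCGGAAG or its reverse complement. They lie at chr15:79670794-79670853 (plus strand) for Tomm22, chr6:71831171-71831230 (plus strand) for Immt, chr2:180070517-180070576 (plus strand) for Gtpbp5, chr5:24445264-24445323 (minus strand) for Fastk, chr12:84773210-84773269 (plus strand) for Hbld1 and chr13:99344715-99344774 (minus strand) for Ptcd2.
Tomm22: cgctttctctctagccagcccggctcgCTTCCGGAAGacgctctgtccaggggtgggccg
Immt: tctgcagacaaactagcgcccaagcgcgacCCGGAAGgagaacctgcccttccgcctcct
Gtpbp5: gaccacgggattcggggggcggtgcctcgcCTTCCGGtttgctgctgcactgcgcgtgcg
Fastk: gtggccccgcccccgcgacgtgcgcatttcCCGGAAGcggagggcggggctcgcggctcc
Hbld1: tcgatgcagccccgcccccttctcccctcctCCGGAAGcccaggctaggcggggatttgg
Ptcd2: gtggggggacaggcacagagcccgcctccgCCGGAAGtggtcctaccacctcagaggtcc

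All 6 stretches are rich in G and C. In Tomm22 the match on one strand and the match on the other overlap, so that the capitals read the same on both strands. In Gtpbp5 the motif stands on the strand opposite to the gene, and in the other 4 on the strand of the gene. The promoters of these 60 genes are taken up again, with counts, after the expression values.

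Protein import opened the list of roles with some of its largest differences. Tomm22 encodes the central receptor of the outer membrane translocase. Control cells (empty vector) gave signals of 339.5 and 304 on arrays A and B, and NT-PGC-1α cells gave 725 and 837, a fold of 2.42 (2.14 to 2.75). Timm10, a small chaperone that escorts membrane proteins across the intermembrane space, was higher to nearly the same extent in all pairings, by 1.86-fold (1.82 to 1.91). Its signals were 2529.5 and 2519.6 in control cells against 4595 and 4823, without overlap.

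The folding and proteolysis genes differed less. Hspe1, the co-chaperonin of the matrix, was higher by 1.47-fold (1.38 to 1.57). A further Hspe1 probe, described below, overlapped between the pools. Clpp, the proteolytic subunit of the matrix ClpXP protease, had 28875 and 29370.2 in control cells and 40744 and 40395 in NT-PGC-1α cells, a fold of 1.39 (1.38 to 1.41). Clpx, its ATPase partner, was higher by 1.38-fold (1.30 to 1.46), so the listed probes of both subunits differed by nearly the same factor. A further Clpx probe, described below, was at 1.10-fold and overlapped between the pools. Metapl1 (now Metap1d), a mitochondrial methionine aminopeptidase, was the lowest of these 6 genes, with 7679.6 and 8229 against 9944 and 10554 and a fold of 1.29 (1.21 to 1.37). The median over the 6 import, folding and proteolysis genes was 1.43-fold.

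Among the listed probes of the 7 genes for cristae and membrane proteins, with a median of 1.45-fold, that of Immt differed the most. Immt encodes mitofilin, the core of the complex that shapes cristae junctions. Its listed probe gave 166 and 144 in control cells and 357 and 295 in NT-PGC-1α cells, a fold of 2.10 (1.77 to 2.49). These signals are low, and the range over pairings is the widest among the 4 genes above 2-fold. A second Immt probe with strong signals, described below, was at 1.03-fold and overlapped between the pools. Letm1, an inner membrane protein of cation exchange, had the tightest values of all, with 35227 and 35136 against 52052 and 52164, a fold of 1.48 in every pairing.

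Ndg2 (now Chchd10), a small protein of the intermembrane space, gave 509259 and 499530 in control cells and 761426 and 704742 in NT-PGC-1α cells, 1.45-fold higher (1.38 to 1.52). Sfxn2, a sideroflexin of the inner membrane, was at 1.52-fold (1.38 to 1.66) and Cstad at 1.39-fold (1.35 to 1.43). Lactb, a filament-forming protein of the intermembrane space, was at 1.29-fold (1.23 to 1.36). Nipsnap3a closed the group with 14683 and 15971 against 19933 and 19081, a fold of 1.27 (1.19 to 1.36), the second lowest of the 60.

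The translation apparatus made up the largest role, with 10 genes for the mitochondrial ribosome and a median of 1.38-fold. The highest was not a structural protein of the ribosome: Gtpbp5 (now Mtg2) encodes a GTPase of large subunit assembly. Its signals were 2334 and 2297 against 4140.2 and 4355, a fold of 1.83 (1.77 to 1.90). Of the structural proteins, Mrps10 of the small subunit was highest at 1.74-fold (1.64 to 1.85), followed by Mrpl51 of the large subunit at 1.52-fold (1.48 to 1.57).

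The other 7 ribosomal proteins lay in a narrow band below 1.5-fold. Mrpl46 gave 61724 and 64982 in control cells and 88796 and 90719.8 in NT-PGC-1α cells, a fold of 1.42 (1.37 to 1.47). Mrps11, whose gene starts next to Mrpl46 on the opposite strand, was at 1.29-fold (1.28 to 1.30). The pairings of Mrpl46 and Mrps11 did not overlap, although RefSeq places their promoter windows over one another. Pairings cover technical arrays alone, and probes of the same gene also differed, as described below. A difference between genes therefore cannot be told apart from a difference between probes. Mrpl4 was at 1.40-fold, Mrpl36 at 1.37-fold, Mrpl28 at 1.33-fold and Mrpl49 at 1.28-fold. A second Mrpl49 probe, described below, was 1.11-fold lower. Mrpl24 was the lowest, with 40868 and 41558 against 51950.2 and 53341, a fold of 1.28 (1.2501 to 1.31).

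The 7 genes of tRNA and RNA handling had a median of 1.38-fold, and 1 of them passed 1.5-fold. Fastk, a member of the family of RNA-binding proteins that process mitochondrial transcripts, had 12782 and 13208 in control cells and 21839.8 and 20983 in NT-PGC-1α cells, a fold of 1.65 (1.59 to 1.71). Qrsl1, a subunit of the amidotransferase that makes glutaminyl-tRNA, was at 1.47-fold, and Mars (now Mars1) was at 1.45-fold. Ptcd2, a pentatricopeptide repeat protein of transcript processing, had 33838 and 34999 against 47493 and 47365, a fold of 1.38 (1.35 to 1.40). Its value sat at the median of the group. Drg2, a GTP-binding protein, was also at 1.38-fold and Elac2, the endonuclease that trims tRNA ends, at 1.35-fold. Harsl (now Hars2), the mitochondrial histidyl-tRNA synthetase, was lowest with 4994 and 4768 against 6622 and 6489.96, a fold of 1.34 (1.30 to 1.39).

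The 3 cofactor genes had the highest median of any role, 1.68-fold. Cabc1 (now Coq8a) encodes an atypical kinase needed for coenzyme Q synthesis. It gave 155406 and 171274 in control cells and 369285 and 444738 in NT-PGC-1α cells, a fold of 2.48 (2.16 to 2.86), the second highest of the 60. Coq6, a hydroxylase of the same pathway, gave 7636 and 7328 against 12370.1 and 12723, a fold of 1.68 (1.62 to 1.74). Both coenzyme Q genes thus lay above 1.5-fold in every pairing. Hbld1 (now Isca2), a late factor in the assembly of iron-sulphur clusters, gave 46988 and 46938 against 66088 and 70667, a fold of 1.46 (1.41 to 1.51).

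Among the 9 genes for pyruvate, TCA cycle and amino acid enzymes the median was 1.40-fold. Fahd1, which encodes an oxaloacetate decarboxylase, was highest with 11821 and 13224 against 21398 and 21677, a fold of 1.72 (1.62 to 1.83). Csl, a citrate synthase-like gene, was at 1.59-fold (1.46 to 1.73). The remaining 7 stayed below 1.5-fold.

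The enzymes at the centre of matrix metabolism were among these 7. Sucla2, the ATP-forming subunit of succinyl-CoA synthetase, was at 1.45-fold. Pdhx and Pdhb, 2 components of the pyruvate dehydrogenase complex, were at 1.43-fold and 1.32-fold. A second Pdhb probe, described below, was 1.13-fold lower. For the breakdown of branched-chain amino acids and propionyl-CoA, Bckdha was at 1.39-fold (1.26 to 1.54) and Pcca at 1.40-fold (1.30 to 1.51). Aldh4a1, an enzyme of proline breakdown, was lowest with 3082 and 3058 against 3816 and 4093, a fold of 1.29 (1.24 to 1.34).

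The 8 genes for lipid, sterol and prostaglandin enzymes had a median of 1.48-fold. Dci (now Eci1), the isomerase that lets unsaturated fatty acids enter β-oxidation, gave 84816 and 87184 in control cells and 172850 and 164475 in NT-PGC-1α cells, a fold of 1.96 (1.89 to 2.04). Ech1, an isomerase of the same auxiliary route, was lower at 1.48-fold (1.43 to 1.53), and the pairings of the 2 genes did not overlap. Here too, gene and probe cannot be told apart. Phyh, of peroxisomal α-oxidation, was at 1.68-fold and Hsd17b4, of peroxisomal β-oxidation, at 1.35-fold.

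The sterol and prostaglandin enzymes, with Zadh2, spread over a similar range. Hsd3b5, a hydroxysteroid dehydrogenase, was at 1.80-fold (1.71 to 1.88), and Cyp27a1, the mitochondrial sterol 27-hydroxylase, at 1.46-fold (1.41 to 1.51). Zadh2 was at 1.48-fold (1.36 to 1.60). Ptges2, a prostaglandin E synthase, was lowest with 13325 and 12774 against 17545 and 16538, a fold of 1.31 (1.24 to 1.37).

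The 4 redox and sulphide genes had the lowest median, 1.37-fold, but also held a pair of paralogs whose probes differed. Txnrd2 encodes the mitochondrial thioredoxin reductase and gave 2051 and 2106 in control cells and 4061 and 3837 in NT-PGC-1α cells, a fold of 1.90 (1.82 to 1.98). Txnrd1, the cytosolic enzyme, was at 1.46-fold (1.38 to 1.54), and the pairings of the 2 genes did not overlap. With 1 probe for each, a difference between the genes cannot be told apart from a difference between the probes. Prdx6, a peroxiredoxin, gave 9162 and 9946 against 12362 and 12256 and a fold of 1.29 (1.23 to 1.35). Ethe1, the dioxygenase of mitochondrial sulphide breakdown, was the lowest of all 60 genes with 7562 and 7516 against 9774 and 9361, a fold of 1.27 (1.24 to 1.30).

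The 6 genes of other roles had a median of 1.41-fold and included the highest fold of all. Rab3d gave 758 and 728 in control cells and 2117 and 2162 in NT-PGC-1α cells, a fold of 2.88 (2.79 to 2.97). The fold was close to equal in every pairing. Serhl was at 1.48-fold and Nt5m, a mitochondrial nucleotidase, at 1.30-fold. Hk2, the hexokinase that docks on the outer membrane, gave 84972 and 85898 against 116734 and 113241, a fold of 1.35 (1.32 to 1.37). Hspb7, a small heat shock protein of muscle, gave 3671 and 3752 against 4821 and 4731, a fold of 1.29 (1.26 to 1.31).

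**Figure D2:**
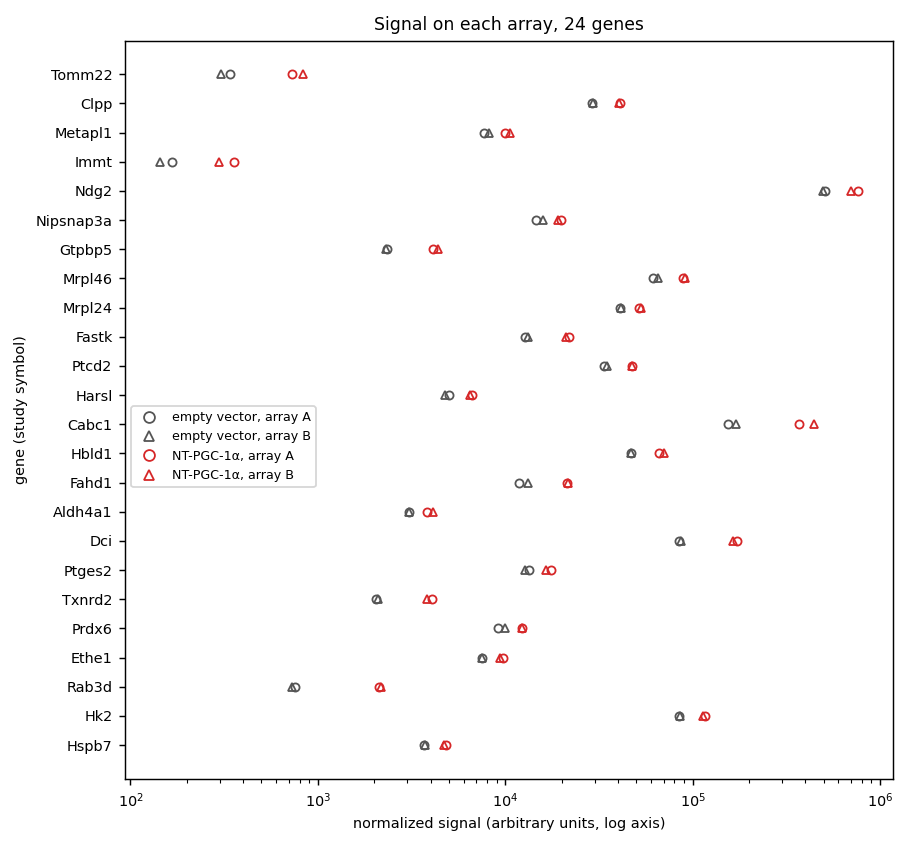
Normalized signal on each of the 4 arrays (log axis, arbitrary units) for 24 of the genes, in each role those with the highest fold, the lowest fold and the highest mean signal, with circles for array A and triangles for array B, grey for empty vector and red for NT-PGC-1α. In every gene the red symbols lie to the right of the grey ones; positions of different genes are not comparable levels.

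The order of the roles by their median, from cofactors at 1.68-fold through lipid enzymes at 1.48-fold, cristae at 1.45-fold, import at 1.43-fold, other genes at 1.41-fold, pyruvate and TCA enzymes at 1.40-fold and both translation roles at 1.38-fold to redox at 1.37-fold, rests on 3 to 10 genes each. Neighbours in this order differed by less than the range of folds within either role. The values just inside the threshold were those of Ethe1 and Nipsnap3a, at 1.27-fold each. Just outside it, among mitochondrial genes with a symbol, lay Cox5b, a cytochrome c oxidase subunit among the genes set aside, at 1.22-fold, then Mrpl33 and Nars2 at 1.15-fold and 1.14-fold.

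The 33 genes set aside from the same mitochondrial list were listed on the same contrast and had a higher median. Over their 35 probes it was 1.54-fold, and 20 probes, 57.1%, were higher by at least 1.5-fold without overlap. Among the 35, a probe of Uqcrc1, a subunit of respiratory complex III, went the other way and was 2.19-fold lower without overlap. The other 671 probes that the study listed as upregulated had a median of 1.65-fold, with 413, or 61.5%, at 1.5-fold or more. The 60 genes described here, at 30%, thus lay closer to the threshold than either. This is a description of lists with a shared selection and has no test.

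For 6 of the 60 genes the array holds further probes with the same gene identifier, 8 in all, that the study did not list, and these were not used to choose the genes. The other 54 genes have no such probe. A measure independent of the choice therefore exists for these 6 genes alone, and it comes from the same arrays and pools. Of the 8 probes, 2 were higher with NT-PGC-1α without overlap (36.3% of all probes were) and 2 were lower without overlap (35.4% of all probes were), while 4 overlapped. The median of the 8 was 0.02 on the log2 scale, with -0.07 and 0.14 as its lowest and highest value over the pairings. The count of higher probes was 4 of 8 with 75th percentile centring, where 50.8% of all probes were higher. It was 1 of 8 with median centring (33.3% of all probes) and 5 of 8 without empty vector array B (43.7% of all probes). With 8 probes the count is not set apart from the background.

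For 5 genes the further probe did not show the difference of the listed one. The second Immt probe gave a strong signal of 102121 and 117106 in control cells and 112489 and 113826 in NT-PGC-1α cells, a fold of 1.03 (0.961 to 1.11), where the listed probe had 2.10. The second Pdhb probe, also with strong signals, was 1.13-fold lower with NT-PGC-1α, with 333782 and 341809 against 321658 and 276770, and it turned to 1.04-fold higher when arrays were centred on their 75th percentile instead. The second Mrpl49 probe, with 21076 and 22143 against 19061 and 19874, was 1.11-fold lower without overlap and stayed below 1 under every setting tried, from 0.805 to 0.966. Both listed probes of Pdhb and Mrpl49 were higher, so the 2 probes of each gene differed in direction. The listed Mrpl49 probe carries 2 gene identifiers, and the second Mrpl49 probe only 1 of them. Whether the listed probe reads another gene was not tested.

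Further probes of the chaperone genes overlapped between the pools. For Hspe1 the second probe, which carries 2 gene identifiers, gave 384747 and 478998 against 393184 and 399641. For Clpx it gave 2660.4 and 2926 against 3219 and 2905, a fold of 1.10 (0.993 to 1.21). On the log2 scale the listed probe exceeded the second probe by 1.02 for Immt (0.66 to 1.23 over the alternative settings), by 0.67 for Hspe1 (0.55 to 0.76), by 0.58 for Pdhb (0.40 to 0.70), by 0.51 for Mrpl49 (0.45 to 0.57) and by 0.33 for Clpx (0.28 to 0.41). Every one of these 5 listed probes was thus above its partner under every setting tried, where the listed probe is the one that was selected.

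Prdx6 was the gene whose further probes came closest to the listed one. Of its 3 further probes, 1 gave 23287 and 24353 in control cells and 40145 and 35783 in NT-PGC-1α cells, a fold of 1.59 (1.47 to 1.72), but it carries the identifier of another gene as well. A second gave 1177 and 1394 against 1579.9 and 1793, a fold of 1.31 (1.13 to 1.52), near the 1.29-fold of the listed probe. The third, at percentile 10.2 of the signals, gave 150.1 and 150.3 against 99.0 and 228 and overlapped. Where on the transcripts the probes lie, and whether they read the same isoforms, was not tested, because probe sequences were not used here.

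**Figure D3:**
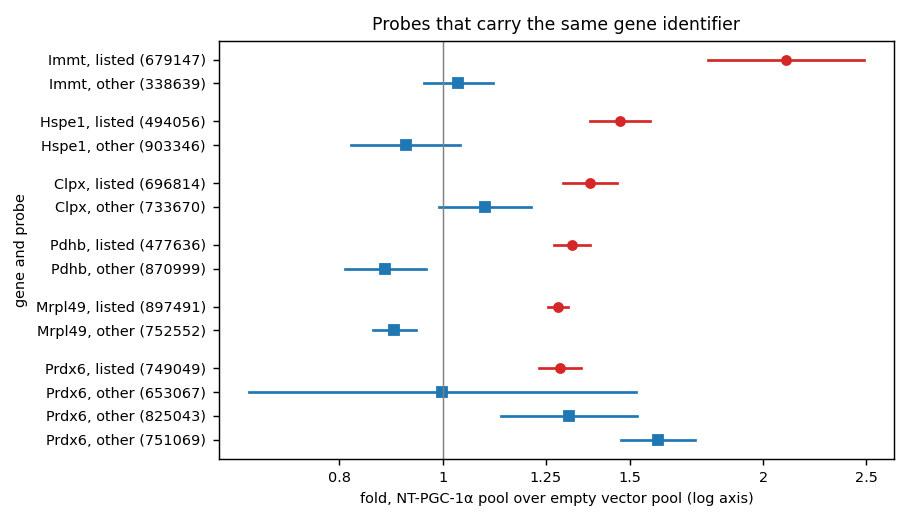
Fold between the pools (log axis) for the listed probe (red circles) and every further probe with the same gene identifier (blue squares) of 6 genes, with lines for the range over the 4 pairings and a vertical line at equal signals; numbers in brackets are probe numbers. The blue squares of Immt, Hspe1, Clpx, Pdhb and Mrpl49 lie between 0.883-fold and 1.10-fold, to the left of the red circles, while 2 of the 3 squares of Prdx6 lie at 1.31-fold and 1.59-fold.

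Other genes of mitochondrial import, cristae, translation, cofactors, matrix enzymes and redox defence, 149 list entries in which a whole gene family counts once, could be read for 9 probes only, since 31377 of the 33012 probes had no symbol here. Of the 9, 5 were named by the study's list of regulated probes and so had been selected on the contrast. They were split in direction. Chchd6, a subunit of the same cristae complex as Immt, and Ptcd1, of the same protein family as Ptcd2, were listed as upregulated at 1.29-fold and 1.28-fold. Got2, the mitochondrial aspartate aminotransferase, was 2.20-fold lower, Sfxn5 1.59-fold lower and Glud1, glutamate dehydrogenase, 1.53-fold lower. Glud1 and Got2 thus differed in the opposite direction to the amino acid enzymes among the 60, and the study's lists fix the direction on both sides. The Glud1 probe carries a further gene identifier as well.

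The 4 other probes were named through RefSeq and were not in the study's list of regulated probes. Wars2, the mitochondrial tryptophanyl-tRNA synthetase, gave 261 and 165 in control cells and 773 and 689 in NT-PGC-1α cells, a fold of 3.51 (2.64 to 4.67). Its symbol is on the study's mitochondrial list of upregulated genes, so its direction is fixed by that choice too, and it is the only 1 of the 102 symbols without a listed probe that could be named. Nars2, the asparaginyl-tRNA synthetase, was higher by 1.14-fold (1.11 to 1.18) without overlap. Mrpl33, of the large ribosomal subunit, had 167132 and 286867 against 246949 and 256218, and Vars2, the valyl-tRNA synthetase, was at 0.914-fold (0.796 to 1.05); both overlapped. Of the tRNA synthetases named here, Nars2 and Vars2 alone stood outside both lists, and their folds lay on either side of 1.

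All 4 promoter motifs were counted on both strands of the 300-base windows, spelled CCGGAAG for GABP, CGCATGCG for NRF1, TCAAGGTCA for the estrogen-related receptors and AAGATGGC for YY1. Matches to CCGGAAG were present in 13 of the 58 windows, or 22.4%, against 8.86% of all 32851 promoters in the table. AAGATGGC was present in 8, or 13.8%, against 2.75%. CGCATGCG was present in 1, that of Clpx, or 1.72% against 1.87%, and TCAAGGTCA in 0 against 0.423%. A match is a description of letters, not a site of binding.

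GABP matches spread over the roles. They stood in the windows of Tomm22, Timm10, Hspe1 and Clpp for import and proteolysis, Immt for cristae, Gtpbp5 and Mrpl51 for the ribosome, Fastk, Mars, Drg2 and Ptcd2 for RNA, and Coq6 and Hbld1 for cofactors. No window of the lipid, TCA or redox genes held one. The 13 genes with a match had a median of 1.52-fold and the 40 genes with a window and no match 1.41-fold, within folds that ran from 1.38 to 2.42 among those with a match. Windows with AAGATGGC belonged to Bckdha, Ech1, Mrps11, Hbld1, Mrpl36, Ptcd2, Dci and Mrpl49, and their median was 1.39-fold against 1.45-fold without. Hbld1 and Ptcd2 held both motifs.

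Base composition moved with these shares. The windows of the 60 genes had a median GC content of 58.7% and 19.5 CpG dinucleotides, against 52.7% and 7 in all promoters. Within the middle range of the members' GC content, 53.7% to 62.3%, CCGGAAG was present in 13.6% of the 8045 promoters and in 8 of 30 member windows (26.7%), and AAGATGGC in 3.59% and in 2 of 30 (6.67%). Among the other genes that the study listed as upregulated, with 736 windows at 60.3% GC, the shares were 15.1% for CCGGAAG and 2.17% for AAGATGGC. In the genes listed as downregulated they were 6.42% and 2.08%.

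The genes set aside from the mitochondrial list had other shares. Of their 35 windows 7, or 20.0%, held CGCATGCG, against 1.72% of the 58 windows described here, 6 (17.1%) held CCGGAAG against 22.4%, and 2 (5.71%) held AAGATGGC against 13.8%. No test was run on these shares, and several windows are not independent: 14 of the 60 genes have a window that overlaps that of another gene on the other strand. Examples are Hspe1 with Hspd1, the chaperonin it serves, Ptcd2 with Mrps27, Fahd1 with Hagh, and Mrpl46 with Mrps11.

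**Figure D4:**
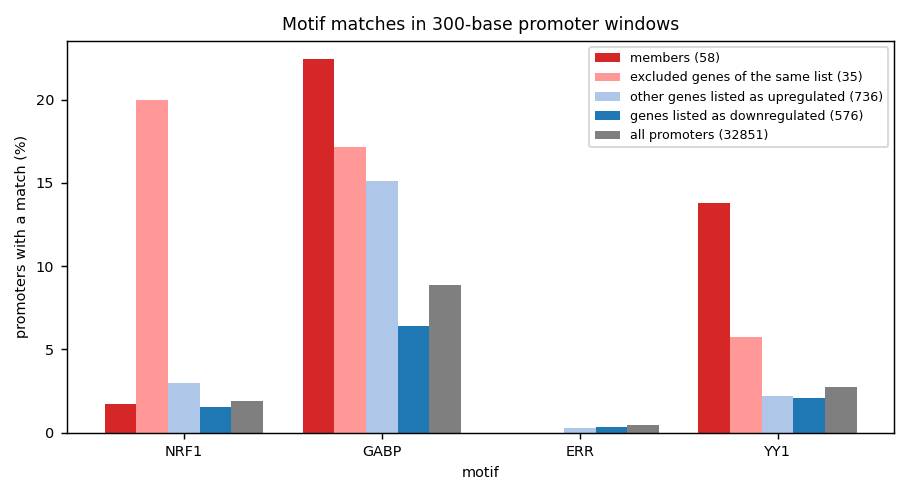
Percentage of 300-base promoter windows with a match to each of 4 motifs, for the 58 windows of the genes described, the 35 of the genes set aside from the same list, 736 and 576 of other genes listed as upregulated and downregulated, and all 32851; bars start at 0. The genes described stand highest for GABP (22.4%) and YY1 (13.8%), and the genes set aside for NRF1 (20.0%).

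Before normalization the empty vector arrays had medians of 448 and 398 and 75th percentiles of 3780 and 3335, and the NT-PGC-1α arrays medians of 442 and 395 and 75th percentiles of 3147 and 2779, so the brighter probes of the NT-PGC-1α arrays were dimmer as deposited. The size of the differences depended on how this was handled. With no normalization 51 of the 60 genes were higher without overlap, where 30.1% of all probes were. At least 25% higher without overlap were 36 genes, and 25.6% of all probes. The median was 0.36 on the log2 scale against -0.04 for all probes. The direction of the 60 genes is fixed by their choice. With 75th percentile centring the median was 0.62 against 0.22 for all probes.

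**Figure D5:**
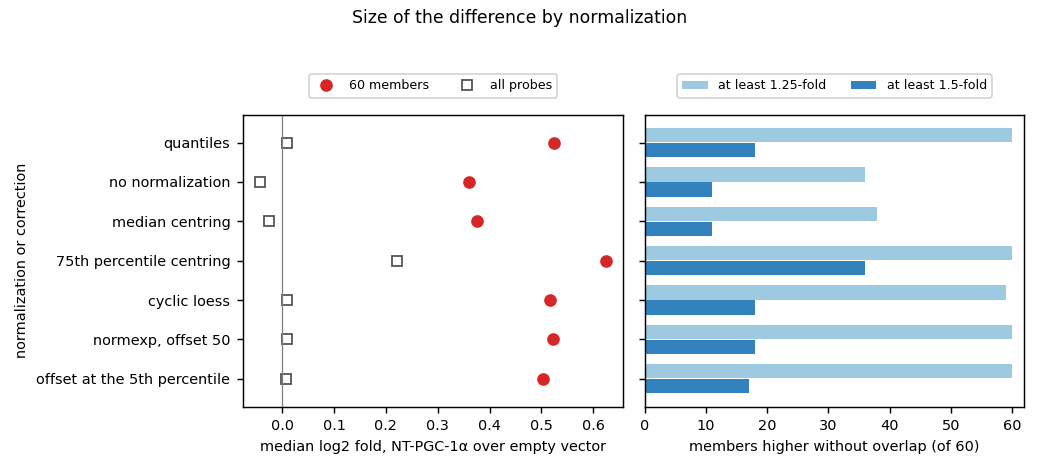
Left, median log2 fold of the 60 genes (red circles) and of all probes (open squares) under quantile normalization and 6 alternatives. Right, number of the 60 genes higher without overlap by at least 25% (light bars) and 1.5-fold (dark bars); the light bars run from 36 with no normalization to 60 and the dark bars from 11 to 36.

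Some markers of cell types differed between the pools as well. Only few had a symbol here, and all of these came from the study's list of regulated probes, so they had been selected as changed. The other markers had no probe listed under their symbol. The paper states that UCP1 expression was not significantly elevated on these arrays. Of 9 brown adipocyte markers 2 were named, Ppara at 2.38-fold and Ppargc1a, the gene from which the construct derives, at 7.06-fold (5.26 to 9.46), and of 8 adipocyte markers 1, Retn, at 1.72-fold. Of 5 preadipocyte and fibroblast markers 3 were named, and all were lower: Col1a1 by 1.59-fold, Col3a1 by 1.503-fold and Thy1 by 8.59-fold. Of 4 muscle markers only Myog was named, 2.78-fold lower, and of 4 macrophage markers only Cd68, 2.43-fold lower. None of the named markers was at 0. The part of these in the differences at the 60 genes was not tested, and in pooled RNA a larger share of differentiated cells and more RNA per cell cannot be told apart.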

How the data were processed

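RNA of 1 pool per group was hybridized to 2 arrays each (4 in all). The pools held 3 RNA samples according to the methods and 2 according to the deposited description. The authors deposited a probe intensity for 33012 probes per array, read on an Applied Biosystems chemiluminescent analyzer and not normalized across arrays; whether background had been subtracted is not given in the sources used here. The methods name ABarray, and the submitters' processing notes R 2.2.1. The flags and signal to noise ratios of the study were not used beyond its own choice of genes. The number of arrays limits the precision.

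Log2 intensities were normalized by quantiles in R 4.3.3 with limma 3.58.1, with no offset and no filter. Means, folds and pairings were computed in Python 3.11.15 (scipy 1.17.1, pandas 2.3.3, numpy 2.4.6, and matplotlib 3.10.9 for figures). The calculations were checked on simulated data. Because arrays A and B share a pool, each group is 1 replicate and no test was made, the methods' t-test included. The genes were taken from the study's lists, and its fold changes and p-values were not used otherwise. The 60 genes, the role lists, the markers and the motifs were chosen with earlier results of these data known. The genes named with all 4 signals are, in each role, those with the highest fold, the lowest fold and the highest mean signal; a few more were picked after their values were seen, and some genes are not reported here by name, although they remain in all counts and medians. Probes were named from the study's list (1342 probes) or by RefSeq accession (293 further probes, GRCm38.p6). Alternatives were the array letter as a block, leaving out each array, a filter at the median signal, cyclic loess, centring on the 75th percentile or the median of each array, no normalization, an added constant equal to the 5th percentile of the signals, and normexp (offset 50).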

Additional observations from a re-analysis of the deposited data

How the results depend on the processing

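No member turned to a lower signal: all 719 folds of members under the 12 alternatives were above 1. What depended on the processing was their size. With no normalization 36 of 60 genes were at least 25% higher without overlap (25.6% of all probes) and 11 at least 1.5-fold (18.3%). The median log2 difference was 0.36. With median centring these were 38 (26.2% of all probes), 11 (18.8%) and 0.38. With 75th percentile centring 36 genes reached 1.5-fold (28.0% of all probes) and the median was 0.62, of which 0.22 was the shift of all probes. At that setting 4 of the 8 further probes were higher, where 50.8% of all probes were, with a median of 0.20. With median centring 1 of these 8 was higher (33.3% of all probes). Leaving out each array in turn gave 56 to 60 genes at least 25% higher (28.5% to 29.3% of all probes). At 1.5-fold there were 17 to 24 (17.8% to 18.4% of all probes), and the median was 0.48 to 0.54. Of the further probes 2 to 5 were higher (5 without empty vector array B), where 43.1% to 43.7% of all probes were. The 4 mitochondrial probes named through RefSeq had a median of 0.078 to 0.39 (0.078 without empty vector array A, 0.39 without empty vector array B). Cyclic loess placed Mrpl24 below 25%, and the filter at the median signal removed Immt. The listed Immt probe, 2.10-fold in the main setting, was at 1.64-fold with the 5th percentile constant and 1.98-fold with normexp. It was at 1.91-fold without NT-PGC-1α array A and 1.95-fold without empty vector array B. With the 5th percentile constant the log2 fold went from 1.28 to 1.04 for Tomm22 and from 1.53 to 1.40 for Rab3d. Pairing the arrays by letter as a block left the counts at 60 and 18 (27.4% and 17.2% of all probes) and the median at 0.52. After quantile normalization, differences between A and B did not go together between the pools (r = -0.02 over all probes, 0.09 over the 60 genes). That normalization removes shifts of a whole array, so these r values cannot show one. As deposited, array A had the higher median in both pools (448 against 398 and 442 against 395). Whether the letters mark a batch was not tested. With 1 pool per group, no setting measures the variation between cultures, and weak signals such as the listed Immt probe are the least certain.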
